A study of Homo sapiens with 9 samples.

Results

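RNA polymerase II (RNAPII) occupancy was compared between HEK293 T-REx cells grown with and without doxycycline, the drug that switches on an introduced RECQL5 gene. All deposited peaks of both lists were members, except 8 in each list that lay over RECQL5 itself on chromosome 17, because peaks there also hold plasmid sequence. This left 33892 peaks with doxycycline and 47052 without, of 142069 peaks in the 5 lists of the series. The series asked how RNAPII is distributed when RECQL5 is depleted or overproduced, and its other RNAPII lists came from cells with short hairpin RNAs (shRNAs). HEK293 is a human embryonic kidney line, and the T-REx derivative carries a repressor that keeps the promoter of a pcDNA4/TO plasmid silent until doxycycline is added. Cells on both sides carried the plasmid with full-length RECQL5 and were selected with Zeocin. They received 0.0 or 1.0 ng/ml doxycycline. RNAPII was precipitated with the antibody 4H8, and each condition was 1 library. A single untreated IgG library was the background for peak calling on both sides. With 1 library a side no replicate check and no statistical test of the conditions could be made, and an effect of doxycycline itself cannot be told apart from an effect of RECQL5. Intervals are 95% intervals that cover counting error only.

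RECQL5 is a helicase of the RecQ family and binds RNAPII directly. RNAPII that starts transcription commonly pauses just past the transcription start site (TSS) before it is released into the gene body, so ChIP-seq signal is usually highest at promoters and lower and broader over gene bodies. A peak in a gene body is a stretch where the polymerase was found more often than in the background sample, which can come from more polymerases or from slower ones.

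The list without doxycycline held 1447992 tags (sequenced reads inside peaks) over 42.0 Mb, and the list with doxycycline held 1538221 tags over 33.7 Mb. The weakest peaks had 9 tags without the drug and 11 tags with it, and the median peak had 14 and 23 tags. Tags are counts that were not scaled for sequencing depth. Over the 17536 regions with a peak in both lists the median ratio of tags, doxycycline over none, was 1.14 (0.19 on the log2 scale), and the log2 ratios of single regions and genes are given relative to that median. Among markers of the line, the promoter of VIM, which encodes vimentin, had 748 tags without and 832 tags with doxycycline, and KRT8 had 190 and 196. Promoter peaks were present in both lists for 6 of the 10 HEK293 markers, for none of the 6 liver and 6 blood genes, and for 1 of the 6 muscle genes, ACTA1 (19 and 31 tags). PAX2, a kidney lineage factor, had 18 tags at its promoter without doxycycline and no peak with it.

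The sequences below show 151 bases around the summit of gene-body peaks that were gained, strengthened, lost or weakened upon doxycycline, in GRCh37. CpG pairs are in capitals. The first 4 lie under peaks that were present only with doxycycline or were higher with it, and the last 2 under peaks that were present only without the drug or were lower with it. They were picked, after values were seen, from the strongest or most changed gene-body regions outside annotated untranslated sequence.

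SUV39H2 intron (0 and 146 tags), chr10:14938590-14938740, plus strand: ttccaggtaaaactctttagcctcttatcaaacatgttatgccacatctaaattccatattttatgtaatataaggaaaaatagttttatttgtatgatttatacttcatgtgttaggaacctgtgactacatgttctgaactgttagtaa
DNAH17 coding exon (0 and 145 tags), chr17:76554287-76554437, plus strand: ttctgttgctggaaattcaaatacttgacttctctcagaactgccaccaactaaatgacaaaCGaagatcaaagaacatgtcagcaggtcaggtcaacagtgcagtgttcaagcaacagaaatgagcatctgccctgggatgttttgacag
MYBL2 intron (0 and 130 tags), chr20:42323341-42323491, plus strand: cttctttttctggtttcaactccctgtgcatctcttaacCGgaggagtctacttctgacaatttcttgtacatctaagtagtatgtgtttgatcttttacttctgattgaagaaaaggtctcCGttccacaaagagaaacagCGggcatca
HELLS intron (10 and 211 tags), chr10:96354224-96354374, plus strand: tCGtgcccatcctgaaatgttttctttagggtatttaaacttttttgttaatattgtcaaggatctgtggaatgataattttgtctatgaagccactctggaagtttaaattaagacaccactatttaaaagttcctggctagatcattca
NBPF20 coding exon (109 and 0 tags), chr1:148309327-148309477, plus strand: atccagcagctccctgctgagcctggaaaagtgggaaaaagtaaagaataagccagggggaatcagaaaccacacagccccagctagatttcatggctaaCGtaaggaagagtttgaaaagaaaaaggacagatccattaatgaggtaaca
C21orf58 intron (89 and 15 tags), chr21:47735037-47735187, plus strand: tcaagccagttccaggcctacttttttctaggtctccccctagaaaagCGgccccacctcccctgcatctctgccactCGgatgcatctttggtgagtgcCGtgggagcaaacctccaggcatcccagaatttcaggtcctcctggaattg

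In each line the first number of tags is without doxycycline and the second with it, and 0 means that no peak was listed. A and T made up 70.9% of the SUV39H2 sequence and 66.9% of the HELLS sequence, against 44.4% of that in C21orf58. The other gained sequences, DNAH17 (57.0%) and MYBL2 (59.6%), were close to the lost NBPF20 sequence (55.6%). Gene-body regions at SLC25A6 and HOXA3 fell more than that at C21orf58 and are not shown, with 27.8% and 60.9% AT.

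The first comparison was the number of peaks. The doxycycline list was 0.720 times as long (interval 0.710 to 0.730). The decrease was concentrated in weak peaks. Gene-body peaks with fewer than 20 tags numbered 22412 without and 10846 with doxycycline, whereas gene-body peaks of 20 to 49 tags rose from 4432 to 7474. The stronger gene-body peaks were also more numerous with doxycycline, 482 against 234 at 100 to 199 tags and 47 against 15 at 500 tags or more. Promoter peaks behaved differently. Their number was 0.503 of the untreated one below 20 tags, and 1.01 at 100 to 199 tags (interval 0.928 to 1.11). When only peaks with at least 20 tags were counted the direction turned, and the doxycycline list was 1.21-fold longer.

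By position, promoter peaks (touching the 500 bp on either side of a protein-coding TSS) numbered 12391 without and 9943 with doxycycline, a fold of 0.802. Gene-body peaks (from 500 bp past the TSS to the transcript end) fell from 27974 to 20620, a fold of 0.737. Peaks within 5 kb past a gene end fell from 2184 to 1301, and all other peaks from 4503 to 2028. The tags moved the other way in gene bodies. Gene-body peaks held 503021 tags without and 642465 tags with doxycycline, which took their share of all tags in peaks from 34.7% to 41.8%. Promoter peaks held 757065 and 752491 tags, and their share went from 52.3% to 48.9%.

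Peaks at sequence that occurs more than once in the genome were lost most often. A peak was placed in this class when at least 3 of 5 words of 32 bases, spaced 50 bp apart around its summit, had another copy in GRCh37. Without doxycycline 6704 of 47052 peaks were in the class (14.2%, interval 13.9 to 14.6%), and with doxycycline 1726 of 33892 (5.09%, interval 4.86 to 5.33%). The 3 hairpin lists held 3.14 to 4.06% of such peaks. Repeated sequence accounted for 4978 of the 13160 peaks by which the lists differed (37.8%), for 40.4% of the difference in gene bodies and for 61.1% of it outside promoters, genes and gene ends. Among peaks at sequence found once, the fold in number was 0.797 (interval 0.786 to 0.809). Genes with near-identical copies were among the largest losses. NBPF20 (ENSG00000203832), a member of the neuroblastoma breakpoint family on chromosome 1, had 40 gene-body peaks with 1260 tags without doxycycline and none with it, and all 5 words at its strongest region had further copies. Reads of such genes cannot be assigned to 1 copy with certainty. The part of read mapping in these losses was not tested.

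**Figure D1:**
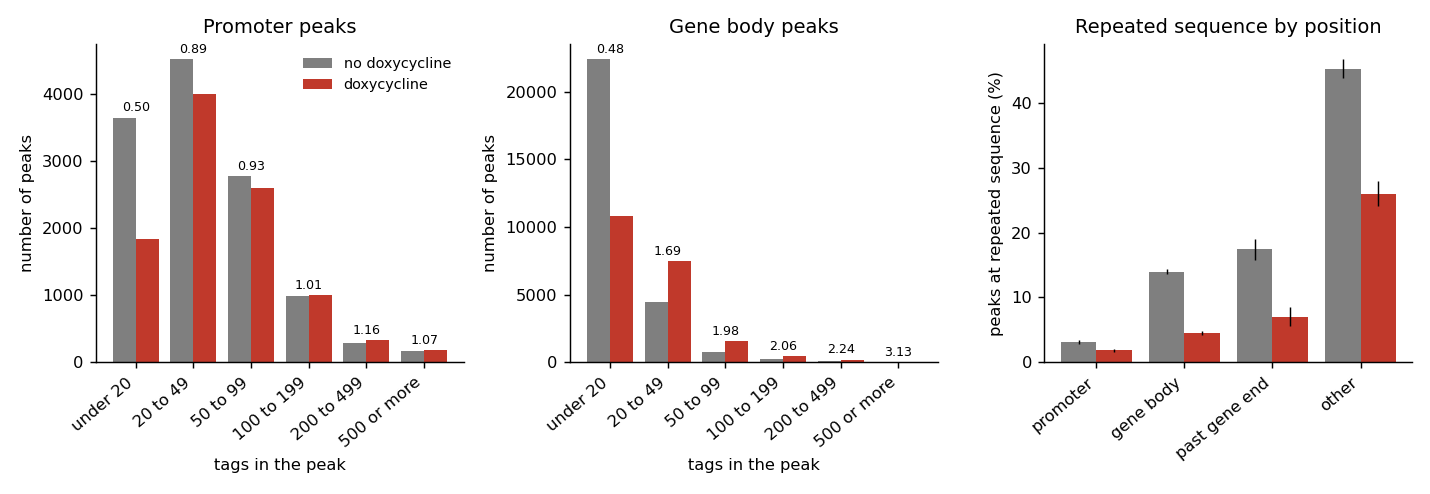
Number of promoter (left) and gene-body (middle) peaks by the number of tags in the peak, without (grey) and with (red) doxycycline, 1 library each, with the fold printed above each pair. The right panel gives the share of peaks at repeated sequence by position with 95% exact intervals, and the grey bar is higher in each of the 4 classes.

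Overlap was asked next. Of the peaks without doxycycline, 45.6% touched a peak of the other list by at least 1 bp (interval 45.2 to 46.1%), and of the peaks with doxycycline 61.8% did (interval 61.3 to 62.3%). At promoters 92.9% of the doxycycline peaks had a counterpart, and in gene bodies 46.2% did. The joined lists made 56071 regions, of which 17536 were shared, 12956 were found only with doxycycline and 25579 only without it. Shared regions comprised 8838 promoter and 7024 gene-body regions. A joined region that touched a promoter window was counted as promoter in full, with any gene-body peaks joined to it. Shared promoter regions therefore held 821483 tags with doxycycline, more than the 752491 in promoter peaks themselves. The promoter tags of single genes are sums over such regions.

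At the shared regions, gene bodies gained tags relative to promoters. The median log2 ratio was −0.16 at promoters and 0.35 in gene bodies, a difference of −0.52 (promoter minus gene body), or 1.43-fold in favour of gene bodies. A constant factor between the libraries cancels in this number. Depth can also change which peaks are called and how long they are, and that part does not cancel and was not tested. The promoter median depends on the centre, and before centring it was 0.03. The difference kept its sign when tags per kb of peak were used (−0.34) or fold enrichment over the background library (−0.44). Regions at least 2-fold above the median region made up 23.6% of gene-body regions (1656 of 7024) and 2.56% of promoter regions (226 of 8838), and 11.4% of all shared regions. Regions at least 2-fold below it made up 5.64% of gene-body regions and 7.92% of promoter regions (700), and 7.41% of all. Past gene ends 12.3% of 504 shared regions were at least 2-fold higher and 7.94% at least 2-fold lower, and at other sites 5.30% and 14.0% of 1170. The split of promoter calls rested on the measure. Without centring 408 promoter regions were higher and 449 lower, with centring on total tags in peaks 293 were higher and 541 lower, and with tags per kb 3 were higher and 54 lower. A gene-level sum of gene-body tags, which also counts peaks found in 1 list alone, gave a smaller shift. Over 4318 genes with gene-body peaks in both lists the median was −0.01, beside −0.19 over 9376 genes with promoter peaks in both, with 17.0% of gene bodies at least 2-fold higher and 21.8% at least 2-fold lower. Set against the promoter of the same gene, gene-body tags were higher in 2102 of 3723 genes (56.5%, interval 54.8 to 58.1%), with a median of 0.20 on the log2 scale. Among 1681 genes with at least 50 gene-body tags in both lists they were higher in 67.0%. The median was −0.03 for genes under 20 kb and 0.30 for genes over 50 kb.

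Promoter peaks were also narrower with doxycycline. This was measured at 4103 genes of at least 10 kb with 1 promoter peak in each list. No start site of another protein-coding gene lay within 10 kb, taking the longest transcript of each gene. The median length was 1142 bp without and 982 bp with the drug, and the peak was shorter at 2773 genes. The median downstream edge moved from 568 to 491 bp past the TSS, and the upstream edge from 526 to 462 bp before it. The median summit lay at 42 and 44 bp past the TSS. Over all promoter peaks the median fold enrichment was 23.3 without and 13.7 with doxycycline, and its part in the peak edges was not tested.

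Base composition moved with these ratios and is given here beside them. The ratio was higher where the summit was richer in A and T, within promoters (from −0.23 below 35% AT to 0.54 above 65%) and within gene bodies (from −0.19 to 0.60). Promoter regions were mostly GC-rich and gene-body regions mostly AT-rich, so the classes differ in this respect. At matched AT content the difference between promoters and gene bodies was −0.18 at 35 to 45% AT, −0.33 at 45 to 55% and −0.31 at 55 to 65%. In the lowest and highest bins it was −0.03 and −0.05. Regions found in 1 list alone showed the same direction. The median AT content in the 201 bp at the summit was 60.2% for gene-body regions found only with doxycycline, 56.2% for shared ones and 53.2% for those found only without it. At promoters the values were 46.8%, 33.8% and 34.3%. The part of base composition in the ratios was not tested.

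**Figure D2:**
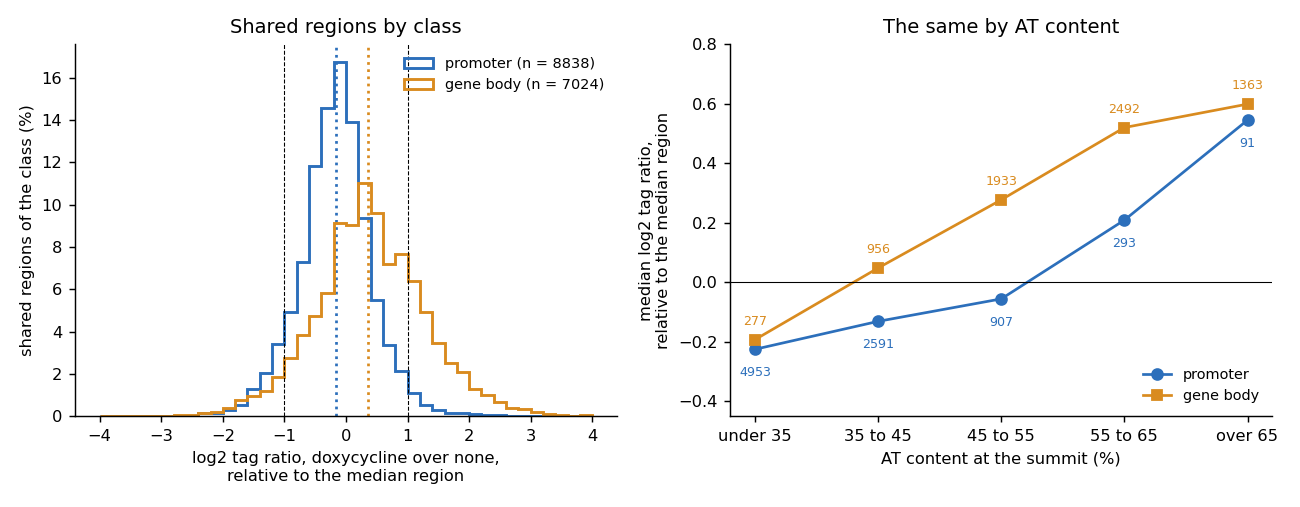
Left, share of shared promoter (blue) and gene-body (orange) regions by log2 tag ratio relative to the median region, with class medians dotted and the 2-fold limits dashed. Right, the median ratio of each class by AT content at the summit, with the number of regions beside each point. The gene-body distribution lies to the right, and both lines climb with AT content and meet at its extremes.

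Within gene bodies the ratio climbed with distance from the TSS up to 50 kb. The median ratio was 0.01 for summits less than 2 kb from the TSS (162 regions), 0.16 at 2 to 5 kb, 0.39 at 10 to 25 kb and 0.58 at 25 to 50 kb (1483 regions). It was 0.49 at 50 to 100 kb and 0.34 beyond 100 kb. The quartiles of neighbouring distances overlapped. Counting only peaks with at least 20 tags, 899 peaks without and 2317 with doxycycline lay 25 to 50 kb into a gene, a 2.58-fold rise. The order held at matched AT content. At 45 to 55% AT the median was 0.07 within 10 kb of the TSS and 0.34 at 10 to 100 kb, and at 55 to 65% AT it was 0.32 and 0.60. Summits of gene-body peaks with at least 20 tags lay in protein-coding exons in 21.3% of cases without and 17.7% with doxycycline, whereas over all gene-body peaks the share was 15.9% in both lists.

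**Figure D3:**
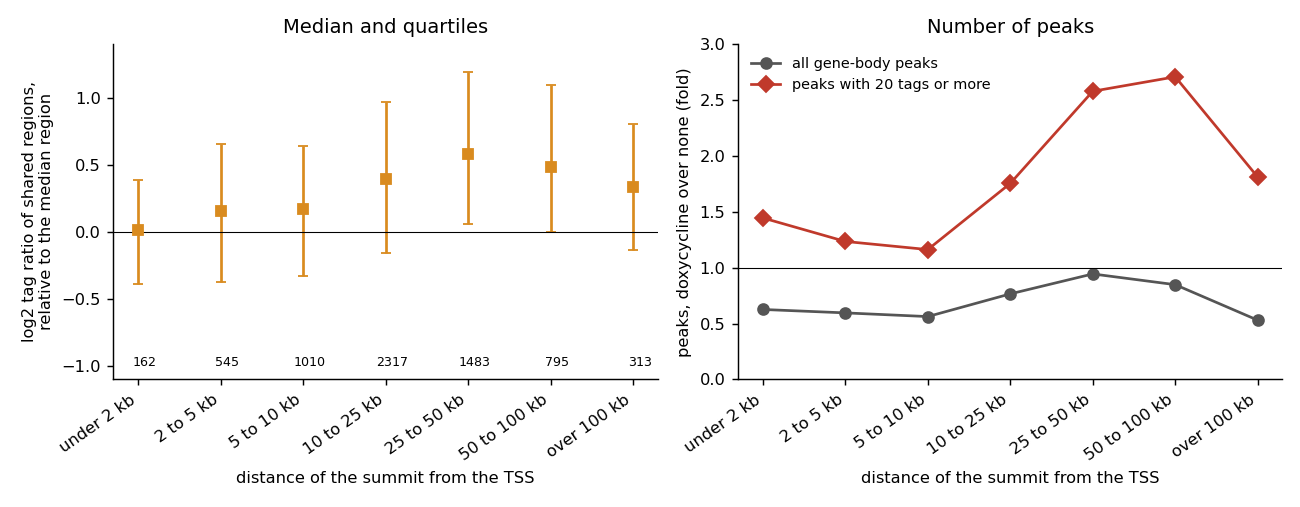
Gene-body signal by distance of the summit from the TSS. Left, median and quartiles of the log2 tag ratio at shared regions relative to the median region, with their number. Right, fold in number of peaks, which stays below 1 for all gene-body peaks and lies between 1.16 and 2.71 for those with at least 20 tags.

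Single genes showed how large the gene-body changes were. EZH2 (ENSG00000106462), the methyltransferase of Polycomb repressive complex 2, had 2 gene-body peaks with 29 tags without doxycycline and 32 peaks with 1485 tags with it, while its promoter went from 196 to 301 tags. ATAD2 (ENSG00000156802), a bromodomain ATPase, went from 10 peaks and 134 tags to 39 peaks and 1612 tags. DNAH17 (ENSG00000187775), an axonemal dynein heavy chain, had no promoter peak in either list, and its gene-body tags rose from 18 in 2 peaks to 989 in 40 peaks. The rise in DYRK1A, a protein kinase, was from 545 to 2048 tags, and that in the translation initiation factor EIF4G3 from 355 to 1437. In EZH2, ATAD2, DYRK1A and EIF4G3 the gene body changed more than the promoter, whose tags went from 118 to 146 in ATAD2, from 141 to 171 in DYRK1A and from 116 to 182 in EIF4G3. Losses were found in other genes. SLIT2 (ENSG00000145147), a secreted guidance ligand, fell from 24 peaks and 339 tags to 1 peak and 19 tags, while its promoter had 163 and 146 tags. MYH9, a non-muscle myosin, fell from 36 to 13 gene-body peaks (457 to 245 tags), and NSD1, a histone methyltransferase, from 34 to 12 (441 to 207 tags). Only tags in called peaks are counted, and the weakest called peaks had 9 tags without and 11 with doxycycline. The peaks of SLIT2, MYH9 and NSD1 held few tags each, and signal left below the calling limit is not known. The other large losses were NBPF20 and the gene model ENSG00000286185 (33 peaks to none), both on chromosome 1. Over 19833 genes, the number of gene-body peaks rose in 1634 and fell in 5219. A lower number of peaks is not always a lower signal. In E2F2 it fell from 11 to 7 while the gene-body tags rose from 159 to 1066. Over all gene-body peaks the fold was 0.737 in number and 1.28 in tags.

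**Figure D4:**
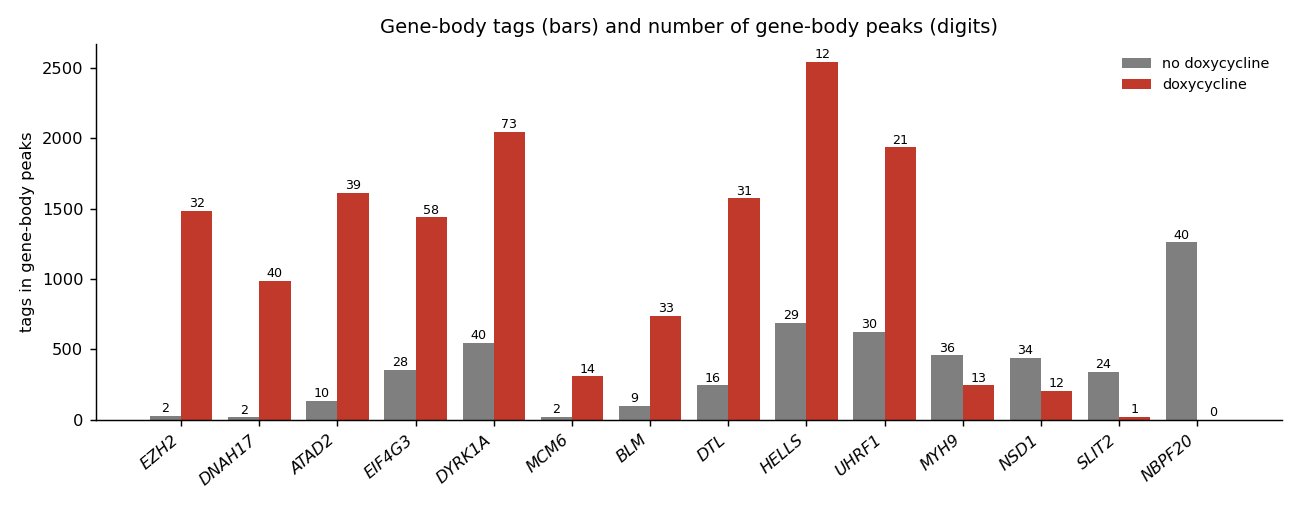
Tags in gene-body peaks without (grey) and with (red) doxycycline in 14 genes, with the number of peaks above each bar, 1 library a side. HELLS has fewer but far larger peaks with doxycycline (29 to 12 peaks and 688 to 2543 tags), whereas SLIT2 and NBPF20 lose nearly all tags in called peaks.

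Genes that are active in S phase stood out among the strongest gene-body regions. HELLS, a chromatin remodeller, UHRF1, which maintains DNA methylation, and ATAD2 supplied 5 of the 8 largest rises among shared gene-body regions. Their called peaks also grew longer, from 567 to 4718 bp at the most changed HELLS region. Per kb of peak, not centred, the log2 ratio was 1.34 there, 1.13 at ATAD2 and 1.18 at UHRF1. It was 0.54 over all shared gene-body regions. Because of these rises, a list of 43 genes that mark S phase was described, together with 54 genes that mark G2 and M phase. Both are marker lists in common use for cell cycle phase and were added after these values were seen, so their counts describe the libraries and are not independent evidence. Gene-body peaks were present in both lists for 36 S-phase genes. Of these, 23 were at least 2-fold above the median region and 1 was at least 2-fold below it, against 17.0% and 21.8% of all genes. The median was 1.44, beside −0.01 over all genes. Before centring the median was 1.63. At promoters 32 of 42 S-phase genes lay above the median region, compared with 34.6% of all genes, and the median was 0.24 beside −0.19. There 5 were at least 2-fold higher (MCM5, RAD51AP1, WDR76, CDC45 and CASP8AP2) and none at least 2-fold lower, against 1.49% and 8.87% of all genes. The CDC45 call includes a joined region inside the gene, described below.

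Replication factors gave the clearest examples. MCM6, a subunit of the replicative helicase, rose from 21 to 308 gene-body tags and had 97 and 204 promoter tags. MCM2 rose from 163 to 516 gene-body tags, and MCM3 from 20 to 186. CDC45, which joins the helicase, rose from 162 to 438 promoter tags. Of these, 89 and 322 came from 7 and 2 peaks of a joined region inside the gene, away from its first start site. DTL, an adaptor of the CUL4 ubiquitin ligase, rose from 244 to 1573 gene-body tags, and POLA1, the catalytic subunit of DNA polymerase alpha, from 105 to 645. Gene bodies of 6 S-phase genes lay below the median region. They included RPA2, a subunit of the single-strand binding complex, with 160 gene-body tags without and 66 with doxycycline, and the uracil DNA glycosylase gene UNG with 211 and 155. Of the 19 MCM and replication genes, 8 were also S-phase list members. Among the 11 gene bodies measured in the full list, 5 were at least 2-fold higher and 1 at least 2-fold lower. The shares over all genes were 17.0% and 21.8%.

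The G2 and M list did not show this pattern to the same extent, although the difference between the lists was not tested. Of 38 measured gene bodies, 9 were at least 2-fold higher and 6 at least 2-fold lower, near the 17.0% and 21.8% of all genes, with a median of 0.30. At their promoters the median was 0.02, and CCNB2 (41 to 86 tags) was highest and CENPE (34 to 13 tags) lowest. The lists were alike in base composition. Shared gene-body regions of both had a median AT content of 58.7%, compared with 56.2% over all gene-body regions. In the S-phase list the median region ratio was 0.91 at 35 to 45% AT, 1.09 at 45 to 55%, 1.03 at 55 to 65% and 1.16 above 65%, beside 0.05, 0.28, 0.52 and 0.60 over all gene-body regions. In the G2 and M list it was 0.48, 0.29, 0.64 and 0.95. Over all bins 32.5% of the 123 G2 and M regions were at least 2-fold higher, with a median of 0.60, as were 53.5% of the 144 S-phase regions, with a median of 1.08, beside 23.6% and 0.35 over all gene-body regions. Leaving out the regions over S-phase, G2 and M genes, the difference between promoters and gene bodies was unchanged to 2 decimals (−0.52). The files hold no measure of cell cycle phase or growth, and their part in these values was not tested. At UHRF1 the strongest risen region (9 to 122 tags) lay at repeated sequence.

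The RecQ helicase and topoisomerase genes are relatives and partners of RECQL5. BLM, the Bloom syndrome helicase, which is also in the S-phase list, rose from 9 gene-body peaks with 100 tags to 33 peaks with 737 tags. TOP2A, the proliferation-linked topoisomerase II, went from 385 to 703 gene-body tags and from 100 to 184 promoter tags, and TOP1 from 109 to 194 gene-body tags. TOP3B fell from 110 to 13 gene-body tags. Promoter tags of WRN were 59 and 36. None of the 10 promoters measured in both lists passed 2-fold, where 1.49% of all gene promoters were at least 2-fold higher and 8.87% lower.

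RNAPII subunit genes encode the enzyme itself. All 12 subunit promoters had peaks in both lists and none passed 2-fold, with a median of 0.13. Over all genes 1.49% of promoters were at least 2-fold higher and 8.87% at least 2-fold lower. POLR2A, the largest subunit, had 1453 and 2463 promoter tags, POLR2C was highest in the list (28 and 48) and POLR2G lowest (20 and 12). The POLR2A tags came from 9 and 4 peaks in its promoter regions, and no gene-body peak was counted apart from them. Among 33 measured elongation and pause control genes 1 was at least 2-fold higher (MLLT3, 12 to 28 tags) and 1 at least 2-fold lower (TCEA1, which encodes TFIIS, 41 to 20 tags). In their gene bodies 2 of 23 were at least 2-fold higher and 5 at least 2-fold lower, beside 17.0% and 21.8% of all genes. CDK9, the kinase of P-TEFb, fell from 76 to 17 gene-body tags. Its cyclin partners went the other way, with 81 and 197 gene-body tags at CCNT2 and 270 and 435 at CCNT1.

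Housekeeping lists were close to the centre at promoters. All 79 ribosomal protein promoters had peaks in both lists, none passed 2-fold, and the median was −0.08, between RPS21 (195 and 152 tags) and RPS25 (119 and 213). Before centring their median was 0.11. Of all gene promoters 1.49% were at least 2-fold higher and 8.87% at least 2-fold lower. The hnRNP and SR protein genes, whose products bind and splice pre-mRNA, had promoter medians of 0.08 and 0.10. Before centring the promoter medians of the ribosomal, mitochondrial ribosomal, respiratory chain, p53, elongation, RecQ and fragile site lists turn from below to above 0. All 8 measured hnRNP gene bodies and all 4 measured SR gene bodies lay above the median region, with medians of 0.76 and 0.77. Over all genes 49.6% of measured gene bodies lay above it. HNRNPC had 2572 and 5192 promoter tags, the highest of its list. Translation factors (median 0.02) ranged from EIF3C (51 and 33) to EIF3A (1185 and 2154). The EIF3A tags came from 20 and 6 peaks in its promoter regions. Replication-dependent histone promoters had a median of −0.27, with 39 of 52 below the median region and 13 above it, where 34.6% of all gene promoters lay above it, and 1 at least 2-fold higher (H4C9, 10 to 24 tags). Histone genes share sequence among themselves, and many share 1 promoter region and are counted more than once, so their counts are uncertain.

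Stress-responsive lists gave no common rise at promoters. Over all genes the promoter median was −0.19, with 1.49% of promoters at least 2-fold higher and 8.87% at least 2-fold lower. Heat shock protein promoters had a median of −0.31, and 3 of 25 were at least 2-fold lower, including HSPA1A, the inducible HSP70 gene (183 and 82 tags), and HSPA1L, which shares its peak and is the same measurement. HSPA13 was highest (45 and 85). Immediate early genes had a median of −0.25, with EGR3 lowest (42 and 17) and ATF3 highest (620 and 1090). Integrated stress response genes had a median of 0.01, with 11 of 21 above the median region beside 34.6% of all genes. The p53 targets had one of −0.10, from BAX (49 and 25) to DDB2 (69 and 118). At least 2-fold higher in gene bodies were 1 of 13 heat shock genes (HSPA4, 99 to 253 tags) and 1 of 9 p53 targets (PPM1D, 98 to 996). None of 12 immediate early and 12 integrated stress response genes was. At least 2-fold lower were 3, 1, 3 and 4, beside 17.0% higher and 21.8% lower over all genes. Glycolysis genes had a median of −0.33. The lowest member, PFKP, a phosphofructokinase, fell from 106 to 15 promoter tags. Mitochondrial ribosomal promoters had 8 of 74 members at least 2-fold lower, and respiratory chain promoters 2 of 60, beside 8.87% of all gene promoters.

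**Figure D5:**
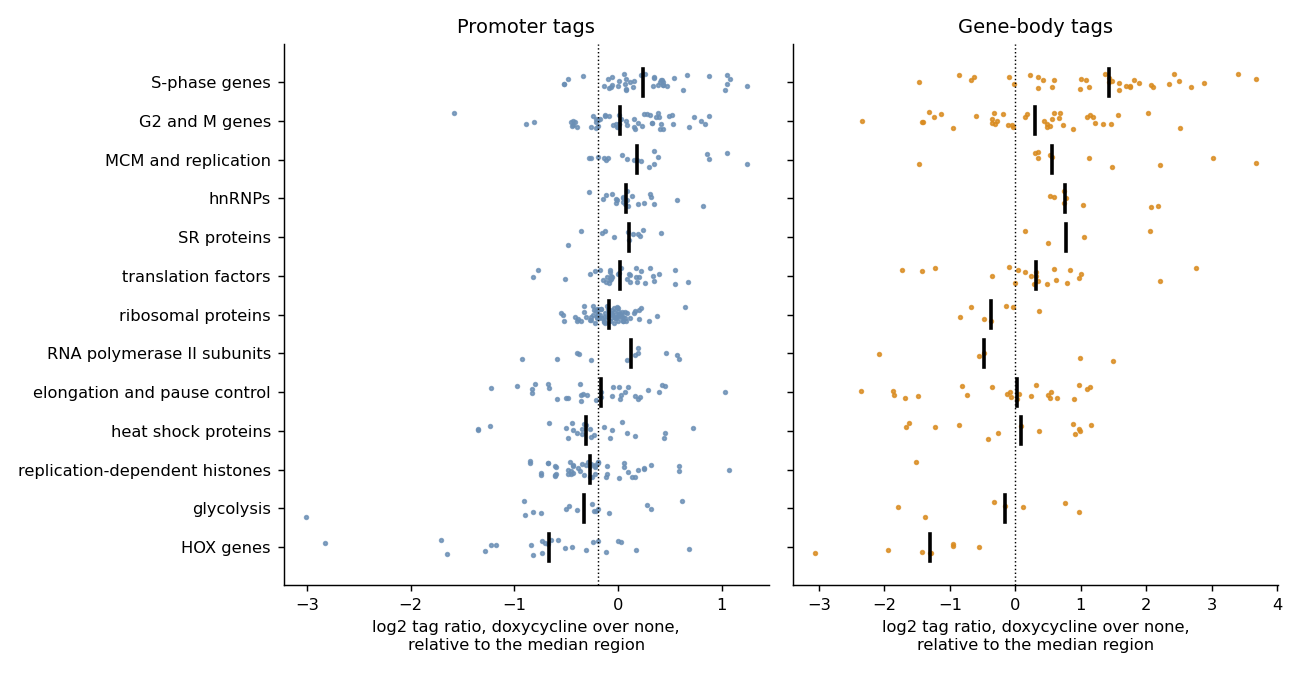
Log2 tag ratio, doxycycline over none, relative to the median region, for members of 13 gene lists with peaks in both lists, at promoters (left) and in gene bodies (right). Each point is a gene, the black bar is the median of the list and the dotted line the median over all genes. The S-phase genes lie farthest right in gene bodies (median 1.44) and the HOX genes farthest left (median −1.30).

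HOX genes, the clustered homeobox regulators of axial identity, were lower upon doxycycline. This list was also added after values were seen. Promoter peaks were present in both lists for 24 of 39 genes and only without doxycycline for 5 (among them HOXA11, HOXB13, HOXC13 and HOXD8). Over all genes the proportion was similar, with 9376 in both lists and 1924 only without doxycycline. Of the 24 HOX genes, 6 were at least 2-fold lower and none at least 2-fold higher, and 20 lay below the median region. Over all gene promoters 8.87% were at least 2-fold lower, 1.49% at least 2-fold higher and 34.6% above the median region. The HOX median was −0.66, and −0.47 before centring. HOXA4 fell from 99 to 16 promoter tags, HOXD9 from 140 to 49 and HOXB4 from 74 to 27. HOXA9 fell from 489 to 229, in a region that it shares with a neighbour. Several neighbours share 1 region (HOXA3, HOXA5 and HOXA6), so the genes are not separate observations. HOXC5 went the other way (12 and 22 tags). In gene bodies all 8 measured HOX genes were below the median region, and 5 were at least 2-fold lower. Over all measured gene bodies 49.6% lay above the median region and 21.8% were at least 2-fold lower. The regulators GATA6 and GATA3 were also lower. The GATA6 gene-body region had 83 tags without doxycycline and no peak with it, and the GATA3 region fell from 70 to 12 tags. The GATA3 peak shortened from 3076 to 445 bp, and its log2 ratio of tags per kb was 0.24, beside 0.35 over all shared regions.

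The largest changes at promoters were on the following genes, summing all promoter regions of a gene. Any annotated protein-coding start site counts as a promoter here, also one inside the gene. FRMD5 rose from 11 to 108 tags, MAP2K5 from 29 to 105 and ISG20, an interferon-induced exonuclease, from 78 to 300. E2F2, a transcription factor that drives S-phase genes, rose from 42 to 130 promoter tags and from 159 to 1066 gene-body tags. RMDN3, ZNF121, NR1H3 and CYTH1 rose from 38 to 117, from 126 to 355, from 38 to 107 and from 73 to 201 tags. The sums cover 2 promoter regions at ZNF121 and 3 at FRMD5. Of the ZNF121 tags, 19 without and 222 with doxycycline lay in a region near the gene end, away from the main start site. The 8 largest falls were PFKP, ECPAS (104 to 23), ARFGAP2 (129 to 33), the immunophilin gene FKBP4 (117 to 36), STK11, the LKB1 tumour suppressor kinase (132 to 41), CBWD5 (165 to 57), HOXD9 and EME2 (286 to 101). The CBWD5 region lay at repeated sequence. The EME2 region is shared with MRPS34 and NME3, so MRPS34, the lowest mitochondrial ribosomal gene, is the same measurement. These sums also count regions found in 1 list alone. At FKBP4, 79 tags without and 0 with doxycycline lay in a region whose summit was intronic. At STK11, 100 and 27 of the tags lay in a region inside the gene. The called peaks changed in length along with the tags, and per kb of peak the differences were smaller at the regions compared. At the most changed shared region of each gene the log2 ratio of tags per kb, not centred, was −0.10 at ECPAS, −0.17 at STK11, 0.16 at CBWD5, −0.26 at HOXD9 and −0.68 at EME2, beside 0.35 over all shared regions. It was 1.12 at the most changed region of ZNF121 and 1.07 at ISG20.

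The strongest promoter regions found only with doxycycline included those at ZNF529 (92 tags), CLTC and PTRH2 (73), OCLN (66), CUTA and PHF1 (61) and RNF10 (58). In gene bodies they were at SUV39H2, in a region that also touches DCLRE1C (146), DNAH17 (145), MYBL2, a cell cycle transcription factor (130), CSNK1A1 (130), RPF2 (129) and EZH2 (129). Elsewhere the highest were at the noncoding MIR663AHG (146 and 114), at CROCCP2 (110) and at an unannotated region of chromosome 19 (107). The strongest promoter regions found only without doxycycline were at TEX19 (92 tags), FKBP4 (79), RAC3 and LRRC45 (77), ZNF324 and ZNF446 (75), ASXL1 (74) and SAMD11 (73). Of the gene-body regions found only without the drug, the highest (203 tags) lay over AC005488.1 on chromosome 7, followed by NBPF20 (109), STAG3L2 (93), NPIPB5 (89), NCLN (83) and GATA6 (83). The TEX19, AC005488.1, NBPF20, STAG3L2 and NPIPB5 regions were at repeated sequence, as were all 4 of the strongest regions outside promoters and gene bodies that were found only without doxycycline (100 to 116 tags). None of the 6 doxycycline-only gene-body regions was.

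The 6 genes whose elongation the study followed singly had few peaks. IFT80 had 427 and 610 promoter tags in a region shared with a neighbour, and KIFAP3 had 11 and 15. ITPR1 had 147 and 101 promoter tags and 15 and 27 gene-body tags. The CTNNBL1 promoter fell from 27 to 12 tags. OPA1 had 23 promoter tags without doxycycline and no promoter peak with it, and 9 and 24 gene-body tags. EFNA2 had no peak in either list. Among the 11 common fragile site genes with promoter peaks in both lists, AUTS2 was lowest (36 and 19) and CCSER1 highest (11 and 22), and 5 more, among them FHIT and WWOX, had a promoter peak only without doxycycline. Over all genes 1924 had a promoter peak only without doxycycline and 226 only with it.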

How the data were processed

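RNAPII ChIP-seq was measured in 2 libraries, 1 for each doxycycline dose. Per the submitters' processing notes, reads were handled with CASAVA 1.8, aligned to hg19 with Bowtie 0.12.7 and called with MACS 1.4.2, and the labels name 1 untreated IgG library, which was taken as the background of both lists. The deposited tags per peak are counts that the authors did not normalise, the significance score (−10 log10 of the p-value) is a score from the authors' peak caller, the fold enrichment is the authors' ratio over background, and the deposited false discovery rate is in percent. The −log10 p of single peaks was used only to rank and filter peaks. Library totals are not in the files, so a constant factor between the libraries was taken out by centring. Centring does not remove an effect of depth on which peaks were called.

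Overlapping peaks of both lists were joined and their tags summed. Positions came from GENCODE 44 lifted to GRCh37, and a region was called when at least 2-fold from the median. Shares have Clopper-Pearson intervals, folds of counts the same interval as odds, and medians order-statistic intervals. Gene sums use the longest protein-coding transcript for the body and all its start sites for the promoter, without regard to strand, so overlapping and antisense genes share tags. Genes were named by rule: 6 genes of the study, the 8 largest rises and 8 largest falls in promoter tags among genes with at least 100 tags in 1 list, the strongest regions found in 1 list alone, the ends of each gene list, the 5 largest gains and 5 largest losses in gene-body peaks, and the polymerase, elongation and RecQ lists. Other named genes were chosen after their values were seen. Members and lists were chosen with earlier results of these data known, and the HOX, S-phase, G2 and M lists and the repeated-sequence class after these values were seen. The calculation was tested on simulated data. Python 3.11.15, pandas 2.3.3, numpy 2.4.6, scipy 1.17.1 and pysam 0.24.0 were used. Alternatives comprised stricter peaks, equal list lengths, other overlaps, windows, measures and centres. A few items that the rule would name are not reported here.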

Additional observations from a re-analysis of the deposited data

How the results depend on the processing

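Each condition was 1 library, so leaving out a replicate was not possible. No paired analysis was possible because a lone library stood on either side. The fold in number of peaks (0.720) reversed to 1.21 with peaks of at least 20 tags, and was 0.819 at a score of at least 100, 0.346 at a fold enrichment of at least 10 and 0.797 at sequence found once. Shortening the longer list to equal length sets it to 1. The share of peaks with a counterpart, no doxycycline then doxycycline, was 61.8% and 74.2% by score, 72.9% and 61.7% by tags, 31.8% and 82.3% by fold enrichment, 55.5% and 56.1% at equal length, 27.8% and 38.5% at 50% overlap of both peaks, 36.1% and 50.04% for summits within 500 bp, and 48.8% and 59.7% at sequence found once. The promoter minus gene-body difference kept its sign throughout, at −0.48 by score, −0.36 by tags, −0.62 by fold enrichment, −0.42 at equal length, −0.34 per kb, −0.44 with fold enrichment as the measure, −0.56 at sequence found once, and −0.33 and −0.18 at 45 to 55% and 35 to 45% AT. Promoter regions at least 2-fold lower numbered 221 by score, 251 by tags, 342 by fold enrichment, 54 per kb and 449 without centring, and those at least 2-fold higher 149 by score, 3 per kb and 408 without centring. The AT difference of gene-body regions found in 1 list (6.97 points) was 9.45 by score and by tags, 6.47 by fold enrichment, 7.46 at equal length, 3.55 in a 2 kb window and 5.97 at sequence found once. The cause of these shifts was not tested. The settings for sequence found once and matched AT content were chosen after seeing the data. Depth was judged here from tags in peaks alone, and weak peaks near the calling limit are the least precise.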

Other observations

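Regions were also set against the hairpin lists. Of gene-body regions found only with doxycycline, 3.20% touched a peak of the control hairpin list, 31.5% one of the shRNA5 list and 46.5% one of the shRNA7 list. The shares were 3.64%, 25.7% and 41.4% for gene-body regions found only without doxycycline, and 19.3%, 63.2% and 71.0% for shared ones. The hairpin lists differ in length, so their shares are not comparable with each other.

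Large rises were also seen at a pair of narrow regions. An intronic region of TBC1D5 on chromosome 3 went from 24 to 327 tags and from 18.0 to 142 in fold enrichment. A region over MIR30A and LINC00472 on chromosome 6 went from 26 to 358 tags and from 13.1 to 70.3. Both were picked after their values were seen.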
